A study of Arabidopsis thaliana with 12 samples.

Results

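The full-size ABCG transporters are membrane pumps of the pleiotropic drug resistance type, and 10 of their genes, *ABCG29* to *ABCG37* and *ABCG40*, are described here in leaves of *A. thaliana*. They were chosen by name, as the rows of these 10 locus identifiers among the 38618 loci of the counts table. The family was picked with the difference of *ABCG34* between steroid-treated and mock-treated leaves already known, so every difference of a member against the mock treatment is given as a description, and where a member passed the threshold of a fit over all loci this is listed without being read as evidence. All 10 members were among the 23203 loci that passed a filter on low counts.

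RNAseq was carried out in 12 libraries of Col-0 wild-type seedling leaves, 4 replicates in each of 3 groups. The groups were PO (10 µM progesterone with 0.12% DMSO as the solvent), TO (10 µM testosterone, for which the labels name no solvent content) and DMSO (0.12% DMSO alone, the mock treatment), all harvested after 1 h. Seedlings of 7 days were moved to a medium named PNM and kept there for 2 days before treatment, while the growth protocol gives an age of 10 days. The study asked whether these steroids disturb the homeostasis of brassinosteroids, and the design allows each steroid to be set against DMSO and both steroids to be set against each other. Progesterone and testosterone share their steroid rings and differ at the D ring, where progesterone carries an acetyl side chain and testosterone a hydroxyl group.

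Total counts ranged from 45185769 to 63445014 in PO, from 41036335 to 51856000 in TO and from 50443138 to 60728111 in DMSO, so 3 counts corresponded to 0.0470 to 0.0723 CPM, the usual unit of counts scaled to library size, here with TMM factors. Summed CPM of 6 leaf marker genes were 30232 to 34423 in PO, 30069 to 32487 in TO and 31396 to 38004 in DMSO. RNA of leaves was thus abundant in all libraries. *LHCB2.1*, the lowest of them in each group, averaged 284.8 CPM in PO and 458.3 CPM in TO, against 580.3 CPM in DMSO. Of the 6, 2 were higher than DMSO on the log2 scale in PO and 0 in TO, against 48.2% and 50.1% of all loci. At an unadjusted p under 0.05 (edgeR), 2 were lower in PO and 0 differed in TO, against 12.1% and 9.51% of all loci. No leaf marker was called by edgeR or DESeq2 at an adjusted p under 0.05. Which library belongs to which treatment was taken from the sample labels, and no transcript in the table checks the treatment itself. The sources used here differ on the direction of the differences from DMSO, and this was not settled. The labels were followed throughout, so "higher" and "lower" stand for libraries labelled PO or TO against libraries labelled DMSO. The labels number the replicates without naming separate plants, although the study calls them biologically independent.

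ABC transporters use ATP to move small molecules across membranes. The full-size members of the G subfamily carry a pair of nucleotide-binding and a pair of membrane-spanning domains in 1 chain, occur in plants and fungi, and mostly sit in the plasma membrane. In *A. thaliana*, they are known for the secretion of defence compounds, the transport of abscisic acid and auxin precursors, and the export of building blocks of the cuticle and cell wall.

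The 10 genes were alike in coding length and differed in exon number. Their coding sequences held 4203 to 4410 bases in 8 to 24 exons of the longest transcript, and 3 genes lay on chromosome 1, 4 on chromosome 2, 2 on chromosome 3 and 1 on chromosome 4 of TAIR10.1. Over the 45 pairs, 60.2% to 81.3% of the aligned coding bases were identical, with a median of 63.2%. The closest pairs were *ABCG35* with *ABCG36* at 81.3% and *ABCG33* with *ABCG37* at 81.0%. The longest exact stretch shared with another gene was 75 bases for *ABCG30* (with *ABCG41*), 62 bases between *ABCG35* and *ABCG36*, 43 bases for *ABCG34* (with *ABCG39*) and 35 bases between *ABCG33* and *ABCG37*. These stretches were shorter than the untrimmed reads of the study. Counts of the lowly expressed *ABCG30*, *ABCG33* and *ABCG35* are uncertain where a trimmed read pair falls wholly within such a stretch, and how often this happened was not measured.

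The 250 bases before the transcription start are shown for *ABCG34*, *ABCG37* and *ABCG40*, the members with the largest differences from DMSO. They were read from the RefSeq TAIR10.1 genome on the strand of the gene, and capitals mark a searched motif. The windows were chr2:15257168-15257417 (+) for *ABCG34*, chr3:19825017-19825266 (+) for *ABCG37* and chr1:5338327-5338576 (minus strand) for *ABCG40*.
ABCG34: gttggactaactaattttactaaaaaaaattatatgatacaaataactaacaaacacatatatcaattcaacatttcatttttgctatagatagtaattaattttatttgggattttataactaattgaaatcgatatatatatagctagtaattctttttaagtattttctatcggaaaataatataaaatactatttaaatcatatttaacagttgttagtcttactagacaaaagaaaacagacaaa
ABCG37: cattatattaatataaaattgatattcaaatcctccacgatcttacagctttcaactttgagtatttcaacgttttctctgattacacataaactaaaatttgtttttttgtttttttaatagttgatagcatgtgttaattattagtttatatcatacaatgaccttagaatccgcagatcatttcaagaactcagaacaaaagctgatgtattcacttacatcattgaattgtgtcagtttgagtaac
ABCG40: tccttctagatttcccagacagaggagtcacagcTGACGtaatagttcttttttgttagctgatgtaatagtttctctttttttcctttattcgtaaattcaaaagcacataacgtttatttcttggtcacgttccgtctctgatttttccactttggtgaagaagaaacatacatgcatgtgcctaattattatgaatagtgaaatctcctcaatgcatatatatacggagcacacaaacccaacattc

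These windows were searched on both strands for TGACG, the core of sites of TGA factors, for TTGAC, the core of the W-box of WRKY factors, and for the G-box CACGTG and the GCC-box GCCGCC. Since the cores TGACG and TTGAC can share bases, as they did on the same strand in *ABCG35*, a window may count for both. Neither *ABCG34* nor *ABCG37* held any of these letters within 250 bases, and *ABCG40* held TGACG once, from base -216 to base -212 counted back from the start. Of the 10 members, 4 held TGACG (*ABCG30*, *ABCG35*, *ABCG36* and *ABCG40*), against 18.6% of 27443 windows of the same length before protein-coding genes. TTGAC was found in 3 members (*ABCG33*, *ABCG35* and *ABCG36*), against 44.9% of all windows. CACGTG and GCCGCC were found in 0 members, against 6.49% and 1.87% of all windows.

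*ABCG34* was the member with the largest difference from DMSO after both steroids. This gene (AT2G36380, chromosome 2 from 15257418 to 15263808 on the plus strand, 19 exons) encodes a transporter known to secrete camalexin, the main phytoalexin of *A. thaliana*, to the leaf surface. Its level in replicates 1 to 4 was 93.9, 102.5, 131.9 and 105.7 CPM in PO, 77.5, 93.3, 111.1 and 98.5 CPM in TO and 39.0, 37.8, 44.5 and 50.7 CPM in DMSO. Every steroid-treated library thus lay above every DMSO library, and replicate 3 was the highest in both steroid groups. Group means were 108.5 ± 16.4 CPM in PO and 95.1 ± 13.9 CPM in TO, against 43.0 ± 5.94 CPM in DMSO (SD, n = 4 each). On the log2 scale this was a difference (logFC) of 1.34 in PO (standard error 0.13, 95% interval 1.05 to 1.63) and of 1.15 in TO (standard error 0.13, interval 0.86 to 1.43), or 2.53-fold and 2.21-fold higher than in DMSO if the labels hold, a direction on which the sources differ.

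By the edgeR quasi-likelihood test at an adjusted p under 0.05 over all loci tested, *ABCG34* was the 1 member of 10 that was called higher in PO, where 0.159% of all loci were called higher. It was also the 1 member called higher in TO, where this held for 0.246% of all loci. As the gene was picked for this difference, nothing is read from these counts. PO and TO were compared with the same 4 DMSO libraries, so their values are not independent of each other. Leaving out any 1 of the 12 libraries kept the logFC of *ABCG34* between 1.23 and 1.43 in PO and between 1.06 and 1.24 in TO. In these leaf extracts, a change in RNA per cell and a change in the number of cells that express a gene cannot be told apart.

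**Figure D1:**
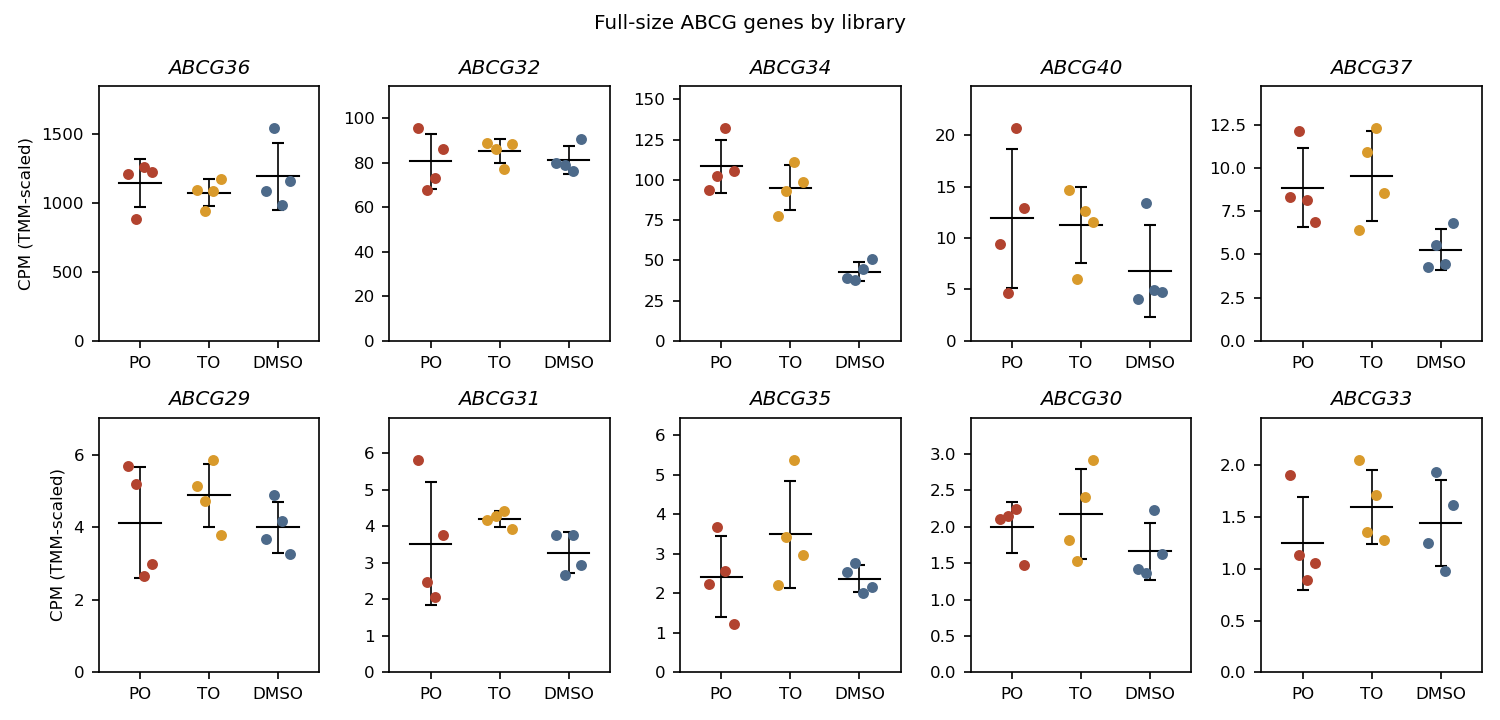
Normalised level (CPM, scaled by TMM factors, linear axes from 0) of the 10 full-size ABCG genes in each library of PO, TO and DMSO. Points are libraries in the order of the replicate numbers, long bars are group means and error bars are SD (n = 4). *ABCG34* lies between 77.5 and 131.9 CPM in all steroid-treated libraries and between 37.8 and 50.7 CPM in DMSO, while most other members overlap.

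The difference of *ABCG34* was not shared by its most abundant relative in defence. *ABCG36* (AT1G59870, chromosome 1 from 22034423 to 22040126, named *PEN3* in the annotation) encodes a transporter needed for penetration resistance against non-adapted fungi and known to export the auxin precursor indole-3-butyric acid (IBA) and cadmium. It was measured at 1208, 881, 1262 and 1220 CPM in PO, 1092, 937, 1085 and 1175 CPM in TO and 1089, 1538, 984 and 1157 CPM in DMSO. The 3 groups overlapped, with the lowest value in PO replicate 2 and the highest in DMSO replicate 2. The logFC was -0.06 in PO (interval -0.38 to 0.26) and -0.15 in TO (interval -0.47 to 0.17).

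Its close paralogue *ABCG35* (AT1G15210) was scarce, with 1.22 to 3.68 CPM in PO, 2.2 to 5.37 CPM in TO and 2.00 to 2.76 CPM in DMSO. The groups overlapped and the intervals were wide, with a logFC of 0.04 in PO (-0.62 to 0.71) and 0.56 in TO (-0.10 to 1.22). Per exon length, *ABCG36* exceeded *ABCG35* within each of the 12 libraries, by 559.3-fold on average in PO, 335.9-fold in TO and 494.8-fold in DMSO.

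Among the defence genes set beside these transporters, no change passed the test in either direction. This test was passed by 0.168% of all loci in PO and 0.284% in TO. None of 8 genes of camalexin biosynthesis and its regulation was called in PO or TO by edgeR (DESeq2 called 0 as well). At an unadjusted p under 0.05, which 12.1% of all loci reached in PO and 9.51% in TO, 0 of the 8 differed in PO and 1 was lower in TO. Their median logFC was -0.14 in PO and -0.18 in TO, against medians over all loci tested of -0.01 in PO and 3.6e-04 in TO. *WRKY33*, the transcription factor that activates camalexin genes, had the smallest p of the list in TO, and a logFC of -0.37 in PO (adjusted p = 0.594) and -0.75 in TO (adjusted p = 0.357, edgeR). A further list held 6 defence genes, among them the myrosinase gene *PEN2* and the syntaxin gene *SYP121* (also called *PEN1*). Of these 6, edgeR and DESeq2 called 0 in PO and 0 in TO. At an unadjusted p under 0.05, 1 was lower in PO and 3 were lower in TO. Their median logFC was -0.16 in PO and -0.48 in TO, and 1 of the 6 had a logFC above 0 in PO and 0 in TO, against 48.2% and 50.1% of all loci. *PEN2* was measured at 233.1 ± 33.3 CPM in PO and 190.3 ± 24.5 CPM in TO, against 264.8 ± 53.5 CPM in DMSO (SD, n = 4 each). Its logFC was -0.18 in PO (adjusted p = 0.628) and -0.48 in TO (adjusted p = 0.251, edgeR).

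*ABCG37*, a gene known mainly from roots, was higher in most steroid-treated libraries but was not called by edgeR. ABCG37 (AT3G53480, chromosome 3 from 19825267 to 19831880 on the plus strand, 23 exons) exports IBA from roots and coumarins that mobilise iron. Its level was 8.32, 12.2, 8.13 and 6.86 CPM in PO, 6.42, 10.9, 12.3 and 8.53 CPM in TO and 4.26, 5.55, 4.43 and 6.85 CPM in DMSO. PO and DMSO did not overlap, although PO replicate 4 and DMSO replicate 4 were only 0.01 CPM apart at this precision, and TO replicate 1 lay below DMSO replicate 4. The logFC was 0.75 in PO (standard error 0.22, interval 0.27 to 1.24) and 0.86 in TO (standard error 0.23, interval 0.37 to 1.34). It was called in TO with DESeq2 and not with edgeR.

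With *ABCG34* and *ABCG37*, 2 of 10 members had no overlap with DMSO in PO, where this held in the upward direction for 2.85% of all loci. In TO the 2 members without overlap were *ABCG34* and *ABCG31*, against 2.9% of all loci. The intervals of *ABCG37* and *ABCG34* were the ones that lay wholly above 0 in PO, and the same held for these 2 genes in TO.

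Root RNA was scarce in these leaf libraries. The 9 root marker genes summed to 4.90 to 8.62 CPM in PO, 4.43 to 9.32 CPM in TO and 4.90 to 6.78 CPM in DMSO, and 2 of the 9 exceeded 1 CPM. No root marker was at 0 in all libraries of a group. The median logFC over the 6 root markers that could be tested was 0.34 in PO, with 0.57 in TO and 0 called by edgeR or DESeq2 (at an unadjusted p under 0.05, 0 in PO and 1 in TO, against 12.1% and 9.51% of all loci), and their part in the values of *ABCG37* was not tested. *ABCG33* (AT2G37280), the closest relative of *ABCG37*, was the lowest member, with 0.89 to 1.91 CPM in PO, 1.27 to 2.05 CPM in TO and 0.98 to 1.93 CPM in DMSO. Its groups overlapped, with a logFC of -0.21 in PO (interval -0.83 to 0.40) and 0.15 in TO (-0.46 to 0.76). Its exons overlap those of AT2G37290 on the other strand by 231 bases, and since the strand setting of the counting is not given in the sources used here, reads there cannot be assigned to one of them. AT2G37290 itself had a logFC of 0.42 in PO and 0.33 in TO.

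By edgeR, genes that act on the same molecules were not called either. Of 6 genes of IBA transport or of its conversion to auxin, 6 had a logFC above 0 in PO and 5 in TO (48.2% and 50.1% of all loci did). The medians of these 6 genes were 0.22 in PO and 0.14 in TO. By edgeR, 0 of the 6 genes were called in PO and in TO (DESeq2 called 1 in PO and 0 in TO). At an unadjusted p under 0.05, 3 in PO and 2 in TO were higher (12.1% and 9.51% of all loci, in either direction). The IBA response gene *IBR3* was measured at 45.9 ± 5.91 CPM in PO and 41.5 ± 2.30 CPM in TO, against 34.6 ± 2.67 CPM in DMSO (logFC 0.41 in PO, adjusted p = 0.155 by edgeR), and it was called higher in PO with DESeq2. Of 8 genes of coumarin synthesis and iron uptake, 5 were abundant enough to be tested, and edgeR called 0 in PO and TO (DESeq2 0, at an unadjusted p under 0.05 also 0).

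Among the members that transport abscisic acid (ABA), *ABCG40* had the widest spread between replicates in each group. *ABCG40* (AT1G15520, chromosome 1 from 5331858 to 5338326 on the minus strand, 21 exons) encodes an ABA importer known from guard cells. It was measured at 9.41, 4.64, 20.6 and 12.9 CPM in PO, 14.7, 6.05, 12.6 and 11.5 CPM in TO and 4.03, 13.4, 4.98 and 4.78 CPM in DMSO. DMSO replicate 2 stood apart from the other 3 DMSO libraries, replicate 2 was the lowest in both steroid groups, and all groups overlapped. The logFC was 0.81 in PO (standard error 0.45, interval -0.15 to 1.76) and 0.72 in TO (standard error 0.45, interval -0.23 to 1.68). Without DMSO replicate 2 it was 1.37 in PO and 1.29 in TO, and without PO replicate 3 it was 0.40 in PO, none of which was called.

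The 4 guard cell markers summed to 35.1 to 84.7 CPM in PO, 62.0 to 88.7 CPM in TO and 59.5 to 95.6 CPM in DMSO, and none was at 0 in a group. Their median logFC was -0.27 in PO and 0.10 in TO with 0 called by edgeR or DESeq2 (at an unadjusted p under 0.05 also 0), and their part in the values of *ABCG40* was not tested.

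*ABCG30* and *ABCG31* are known from seeds, where ABCG31 exports ABA from the endosperm and ABCG30 imports it into the embryo. *ABCG30* (AT4G15230) lay at 1.47 to 2.24 CPM in PO, 1.54 to 2.92 CPM in TO and 1.37 to 2.23 CPM in DMSO, with overlapping groups and a logFC of 0.27 in PO (interval -0.25 to 0.78) and 0.39 in TO (-0.13 to 0.90). It shares 21 exon bases with the neighbouring gene *ABCG42* on the same strand, which was measured at 57.7 ± 14.8 CPM in PO, 51.6 ± 8.83 CPM in TO and 58.9 ± 13.7 CPM in DMSO (SD, n = 4 each).

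*ABCG31* (AT2G29940) was measured at 5.82, 2.48, 2.06 and 3.76 CPM in PO, 4.18, 4.29, 4.41 and 3.92 CPM in TO and 3.76, 2.66, 3.76 and 2.95 CPM in DMSO. All TO libraries lay above all DMSO libraries, while PO replicates extended beyond the other groups on both sides. The logFC was 0.10 in PO (interval -0.47 to 0.66) and 0.35 in TO (-0.21 to 0.92), so the interval in TO included 0 although the groups did not overlap. ABCG31 is also needed for the pollen coat, which is laid down by the tapetum. Of 5 tapetum markers, *A7* and *A9* were at 0 in all 12 libraries, *CYP703A2* was at 0 in PO and TO, and *MS2* averaged 0.0057 CPM in PO, 0 CPM in TO and 0.0080 CPM in DMSO. The other marker, *AMS*, was at 1.35 ± 0.26 CPM in PO, 1.80 ± 0.14 CPM in TO and 1.87 ± 0.24 CPM in DMSO (SD, n = 4 each). The logFC of *AMS* was -0.47 in PO (adjusted p = 0.353) and -0.06 in TO (adjusted p = 0.960, edgeR). At an unadjusted p under 0.05 it was lower in PO and did not differ in TO, against 12.1% and 9.51% of all loci.

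Of 10 genes of ABA synthesis, breakdown, transport and response, edgeR and DESeq2 called 0 in PO and in TO, and 2 in PO and 1 in TO were lower at an unadjusted p under 0.05 (12.1% and 9.51% of all loci, in either direction). Their median logFC was -0.24 in PO and -0.10 in TO. *RAB18*, a marker gene of the ABA response, was measured at 7.46 ± 4.91 CPM in PO and 8.86 ± 2.67 CPM in TO, against 17.7 ± 5.16 CPM in DMSO (logFC -1.26, adjusted p = 0.267 in PO and logFC -1.0, adjusted p = 0.437 in TO, edgeR), where the direction again depends on the labels.

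The members that build the cuticle and the cell wall had no separation between groups. *ABCG32* (AT2G26910, chromosome 2 from 11481326 to 11488270 on the plus strand, 24 exons), required for a tight cuticle and thought to export cutin precursors, was measured at 95.5, 67.9, 73.1 and 86.3 CPM in PO, 88.8, 86.4, 77.5 and 88.5 CPM in TO and 79.8, 79.0, 76.5 and 90.7 CPM in DMSO. Its groups overlapped and its intervals were the narrowest of the family, with a logFC of -0.01 in PO (-0.24 to 0.21) and 0.07 in TO (-0.16 to 0.29). *ABCG29* (AT3G16340), which exports the lignin monomer *p*-coumaryl alcohol, lay at 2.66 to 5.68 CPM in PO, 3.78 to 5.86 CPM in TO and 3.26 to 4.89 CPM in DMSO. Its groups overlapped, with a logFC of 0.05 in PO (interval -0.47 to 0.56) and 0.29 in TO (-0.23 to 0.80).

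For 11 cutin genes, edgeR and DESeq2 called 0 in PO and 0 in TO. In PO, 0 of them had a logFC above 0 (48.2% of all loci did) and 1 was lower at an unadjusted p under 0.05. In TO, 6 had a logFC above 0 (50.1% of all loci did) and 0 had such a p. The cutin hydroxylase gene *CYP86A8* had the smallest p, with 28.4 ± 3.02 CPM in PO and 32.8 ± 2.28 CPM in TO, against 35.4 ± 2.65 CPM in DMSO (logFC -0.32 in PO, adjusted p = 0.211 by edgeR). For 13 monolignol genes, edgeR called 0 in PO and TO (DESeq2 called 0 in PO and 1 in TO), while 5 in PO and 3 in TO were lower at an unadjusted p under 0.05. Such a p, in either direction, was reached by 12.1% of all loci in PO and 9.51% in TO. *4CL1*, a ligase gene of this list, was measured at 29.0 ± 7.27 CPM in PO and 25.3 ± 6.03 CPM in TO, against 48.9 ± 20.3 CPM in DMSO. Its logFC was -0.75 in PO and -0.95 in TO (adjusted p = 0.199 in TO by edgeR), and it was called lower in TO with DESeq2.

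Over the whole family, 7 of 10 members had a logFC above 0 in PO and 9 of 10 in TO, where 48.2% and 50.1% of all loci did. The members had a median of 0.07 in PO, with 0.37 in TO. In PO both values rested on single libraries, since without PO replicate 1 the median was -0.0036 with 5 of 10 members above 0, and without PO replicate 4 the median was 0.21. Members of 1 family are not independent measurements, and no test was made over them. The other 5 full-size genes (*ABCG38*, *ABCG39*, *ABCG41*, *ABCG42* and *ABCG43*) included 3 that could be tested, with medians of -0.02 in PO and -0.11 in TO. Of the 28 shorter relatives *ABCG1* to *ABCG28*, which work as dimers, 23 could be tested, with medians of -0.11 in PO and -0.02 in TO. In both sets edgeR and DESeq2 called 0 genes in PO and 0 in TO. At an unadjusted p under 0.05 (12.1% of all loci in PO and 9.51% in TO), 0 of the 3 differed in either steroid, while of the 23 in PO, 1 was higher and 2 were lower and in TO, 2 were higher.

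PO and TO were then set against each other at the same dose and time, as a comparison over 10 members with p-values adjusted over all 23203 loci. No member differed between the steroids by edgeR at an adjusted p under 0.05, where 0% of all loci were called. DESeq2 also called 0 members, 0 members had an unadjusted p under 0.05 (7.68% of all loci had), and no member had groups without overlap (4.15% of all loci had such groups). Of the 10 members, 3 had a logFC above 0, as did 49.6% of all loci. Adjusted p-values of the members from edgeR lay between 0.708 and 0.973. For *ABCG34* the logFC of PO against TO was 0.19 with an interval of -0.09 to 0.47, so a level up to 1.39-fold higher in PO was still within the interval. *ABCG35* had the largest difference (logFC -0.51, interval -1.17 to 0.15), and the interval of *ABCG40* was the widest (-0.86 to 1.03, logFC 0.08). *ABCG32* and *ABCG36* were bounded more closely, at -0.31 to 0.15 and -0.23 to 0.41. Within these intervals, the acetyl and hydroxyl steroids were not told apart, which does not show that they act alike.

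**Figure D2:**
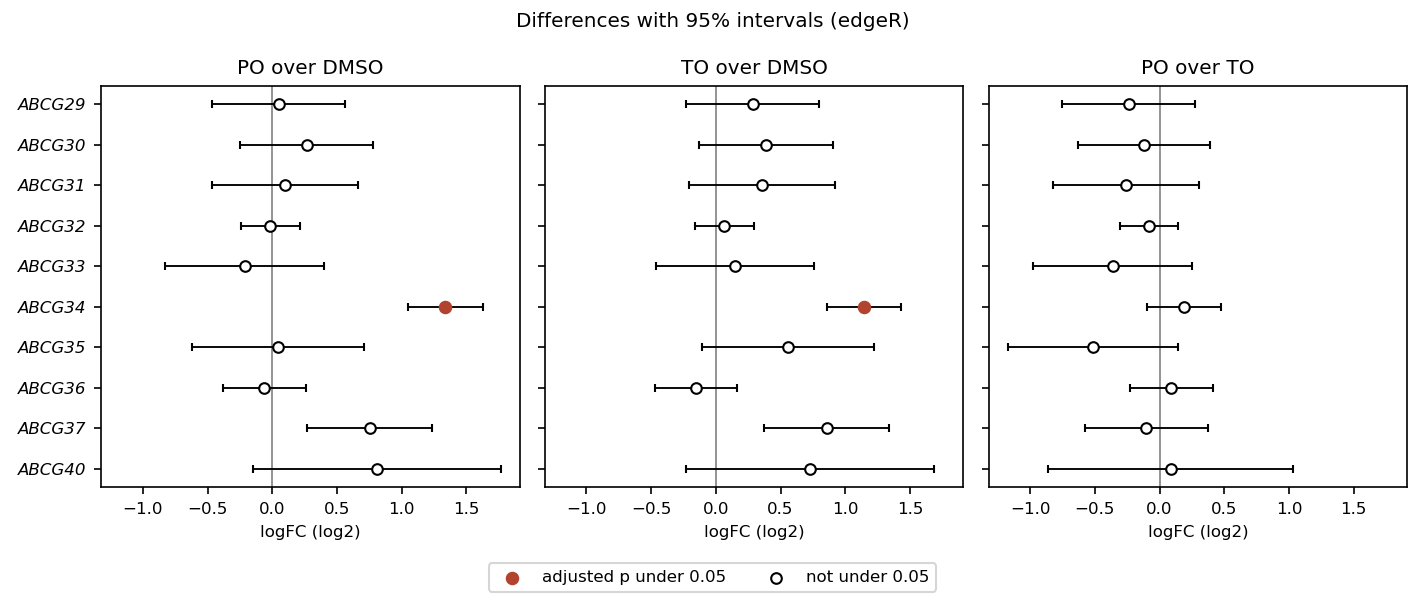
Difference (logFC, log2 scale) of each full-size ABCG gene for PO over DMSO, TO over DMSO and PO over TO, with 95% intervals from edgeR (12 libraries in 1 fit). Filled circles mark an adjusted p under 0.05 over all loci, which is *ABCG34* in both comparisons with DMSO. In the panel of PO over TO all 10 intervals include 0.

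Levels per length, given as RPKM (CPM divided by the kilobases of exon), spanned a wide range, from *ABCG36* at the top to *ABCG33* at the bottom in each group. The ratio of these 2 means was 921.9 in PO, 673.8 in TO and 830.2 in DMSO. *ABCG36* stood at 231.8 ± 35.8 RPKM in PO, 217.5 ± 20.1 RPKM in TO and 241.8 ± 49.0 RPKM in DMSO (SD, n = 4 each). Next came *ABCG34* and *ABCG32*, whose order differed between groups. *ABCG34* had 23.1 ± 3.48 RPKM in PO, 20.2 ± 2.95 RPKM in TO and 9.13 ± 1.26 RPKM in DMSO. *ABCG32* had 16.3 ± 2.53 RPKM in PO, 17.2 ± 1.08 RPKM in TO and 16.4 ± 1.28 RPKM in DMSO.

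Within a library, *ABCG34* exceeded *ABCG32* in 4 of 4 PO libraries and in 3 of 4 TO libraries, against 0 of 4 DMSO libraries. The mean ratio of *ABCG34* to *ABCG32* was 1.45 ± 0.37 in PO and 1.18 ± 0.24 in TO, against 0.55 ± 0.05 in DMSO. Between groups of libraries their values did not overlap in PO and DMSO, and they did in TO. This order carries the same difference of *ABCG34* that chose the family and is no second line of evidence.

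The remaining 7 members were far below. *ABCG40* and *ABCG37* followed in each group and overlapped each other, with 2.57 ± 1.45 and 1.89 ± 0.49 RPKM in PO, 2.42 ± 0.80 and 2.04 ± 0.55 RPKM in TO and 1.47 ± 0.96 and 1.12 ± 0.26 RPKM in DMSO. *ABCG29*, *ABCG31*, *ABCG35*, *ABCG30* and *ABCG33* came last in this order in all 3 groups, at means between 0.25 and 0.98 RPKM, and each overlapped its next neighbour. The step from *ABCG37* to *ABCG29* had no overlap in PO and TO and overlapped in DMSO.

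**Figure D3:**
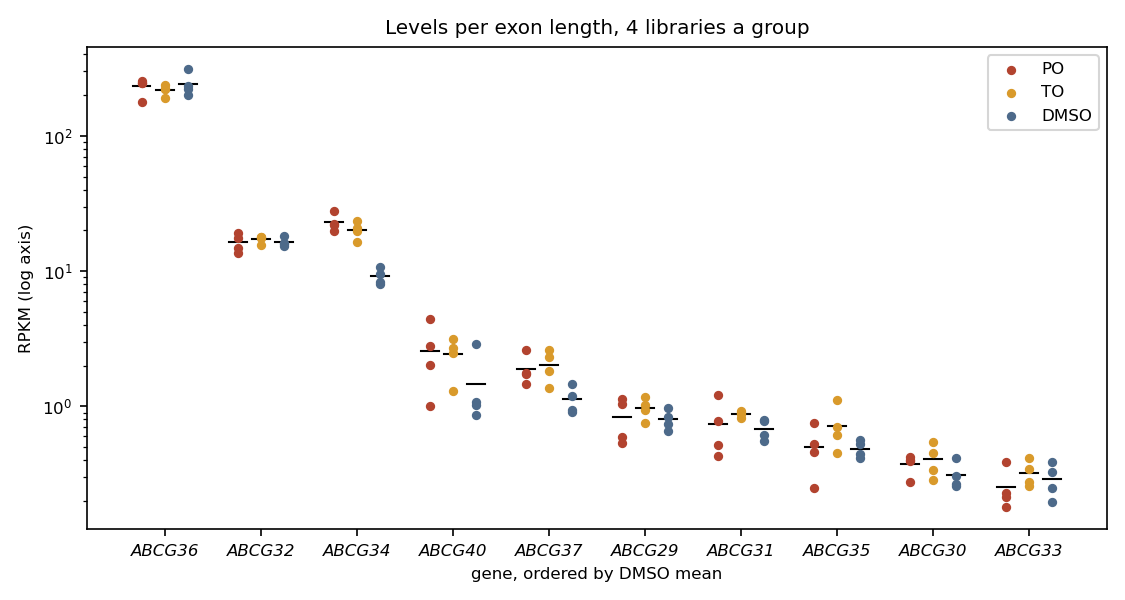
Level per exon length (RPKM, log axis) of the 10 genes, ordered by their DMSO mean. Each point is a library of PO, TO or DMSO and short bars are group means (n = 4). *ABCG36* lies at or above 178.6 RPKM in all libraries, *ABCG32* and *ABCG34* between 8.02 and 28.0 RPKM, and the other 7 genes below 4.45 RPKM.

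*ABCG36* made up most of the RNA of the family. Its share of the summed RPKM of the 10 members was 83.2 ± 1.51% in PO and 82.7 ± 1.40% in TO, against 88.5 ± 1.79% in DMSO, and the share of *ABCG34* was 8.37 ± 1.38% in PO and 7.71 ± 1.15% in TO, against 3.45 ± 0.82% in DMSO (SD, n = 4 each). The summed level was 278.3 ± 39.0 RPKM in PO and 262.7 ± 21.0 RPKM in TO, against 272.5 ± 49.6 RPKM in DMSO. Without *ABCG36* it was 46.5 ± 3.69 RPKM in PO and 45.2 ± 2.80 RPKM in TO, against 30.7 ± 2.28 RPKM in DMSO, with most of that gap from *ABCG34*.

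Spread between replicates differed among members. In PO the coefficient of variation was between 15.1% for *ABCG34* and 56.7% for *ABCG40*, in TO between 4.99% for *ABCG31* and 38.6% for *ABCG35*, and in DMSO between 7.76% for *ABCG32* and 65.2% for *ABCG40*. No single library was high or low for the whole family. PO replicate 1 was the highest PO library for 4 members (*ABCG29*, *ABCG31*, *ABCG32* and *ABCG33*) and PO replicate 3 for 4 others (*ABCG30*, *ABCG34*, *ABCG36* and *ABCG40*). TO replicate 3 was the highest TO library for 5 members and DMSO replicate 2 the highest DMSO library for 5 members.

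The loci with a pattern most like that of *ABCG34* were sought among the 23193 other loci tested, by the root mean square difference of log2 CPM centred on each locus over 12 libraries. The 5 closest were AT5G61820 (0.17), *UGT73B3* (0.18), *CSLE1* (0.19), *CYP89A5* (0.20) and *UGT73B1* (0.24), while the median over all loci was 0.64. *UGT73B3* and *UGT73B1* encode glycosyltransferases, *CSLE1* a cellulose synthase-like protein and *CYP89A5* a cytochrome P450. AT5G61820 was measured at 100.8 ± 9.37 CPM in PO and 96.3 ± 15.6 CPM in TO, against 47.9 ± 7.79 CPM in DMSO (SD, n = 4 each). The 5 loci had a logFC of 0.98 to 1.17 in PO and of 0.90 to 1.18 in TO, with the same doubt over the sign as for *ABCG34*. They were picked by likeness over the same libraries, so their differences are a description too.

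**Figure D4:**
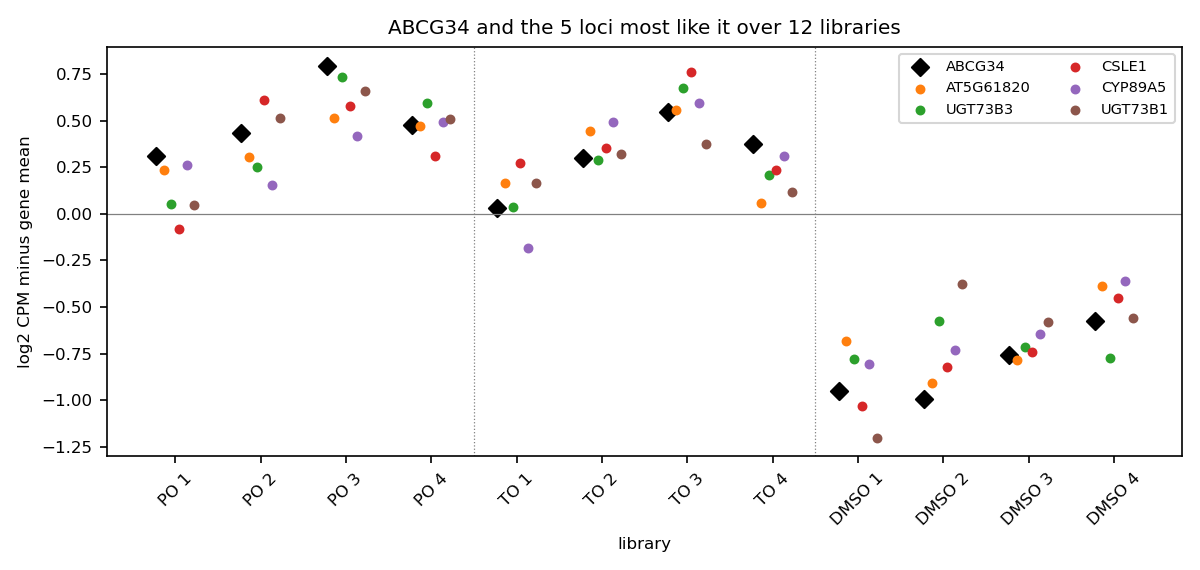
Centred level (log2 CPM minus the mean of the gene over 12 libraries) of *ABCG34* (black diamonds) and the 5 loci most like it (coloured circles) in each library of PO, TO and DMSO. In DMSO all 6 loci lie below their own means, and in PO and TO nearly all values lie above.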

How the data were processed

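RNAseq of *A. thaliana* leaves gave 12 libraries (PO, TO and DMSO, 4 each), grouped by the treatments of the labels. The authors checked reads with FastQC 0.11.9, trimmed them with fastp 0.23.2, used HISAT2 2.2.1 to align them to TAIR10.1 and SAMtools 1.11 to sort them, and deposited unnormalised counts per locus from featureCounts 2.0.1 (38618 loci, 6785 at 0 in every library). Strand, overlap and read pair options of the counting are not given in the sources used here, and totals may count both reads of a pair.

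Loci were filtered with filterByExpr (minimum count 10), scaled with TMM factors and tested with edgeR 4.0.16 (quasi-likelihood, prior count 0.125, treatment as the only term, 9 residual degrees of freedom) in R 4.3.3, with Benjamini-Hochberg adjustment over all 23203 loci. The authors' comparisons used DESeq2, which served here as an alternative (1.42.0). Replicate numbers were not used to pair the samples in this fit, as the labels name no pairing. RPKM used the union of exons. Sequences and coordinates came from the RefSeq annotation (Biopython 1.88), which matched 38074 loci, with coding bases compared in place of proteins, and figures from matplotlib 3.10.9. Alternatives were other filters, RLE factors, total counts, libraries of 2 groups only, a replicate block and leaving out each library. P-values measure the spread between these samples only, and limits of 3 counts cover counting error only.

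The members, lists and tests were chosen with earlier results of these data known. Named genes were the 10 members, overlapping loci, the 5 loci most like *ABCG34* and, of each list, called genes or up to 3 with the smallest p. *IBR3* and *4CL1* were among these. On simulated counts for PO against DMSO over 23203 loci, edgeR found 83 of 100 loci with a 2-fold and 100 of 100 with a 4-fold change, and 16 of its 199 calls were unchanged loci. DESeq2 found as many, with 35 unchanged loci among 218 calls. Each simulated locus was given the trended spread for its level and not its own spread. These shares therefore do not tell how often a change would be found in members with a wider spread, such as *ABCG40*.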

Additional observations from a re-analysis of the deposited data

Results flagged for a closer look

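Among the 30 combinations of member and group, 2 held a library far from the other 3, where chance gives about 1 in 20 (gap to the nearest library over the range of the group, limit 0.829 for 4 libraries). *ABCG36*, the *PEN3* gene, was at 881 CPM in PO replicate 2, below the other 3 PO libraries, with a gap of 0.86 of the range. *ABCG40*, the ABA importer gene, was at 13.4 CPM in DMSO replicate 2, above the other 3 DMSO libraries, with a gap of 0.90 of the range. Without DMSO replicate 2, the logFC of *ABCG40* was 1.37 in PO and 1.29 in TO, against 0.81 and 0.72 with all libraries. Without PO replicate 2, the logFC of *ABCG36* in PO was 0.05, against -0.06 with all libraries.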

How the results depend on the processing

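Over 30 differences of members and 19 alternatives each, 551 of 570 values kept their direction and their call, 18 turned direction in 8 differences of at most 0.12, 1 gained a call and 0 lost one. *ABCG34* was called in PO and TO under every alternative tried, which is no sign of stability because the family was picked for this difference. DESeq2 called 2 members in TO by adding *ABCG37* (logFC 0.85, adjusted p = 0.0241, against 0.0241 to 0.457 over all alternatives); the cause was not tested. With total counts only, *ABCG32* in PO turned to 0.0091. Whether replicate numbers pair the samples is not stated by the labels. Correlations of same-numbered libraries were -0.17 to 0.29. Against DMSO, PO replicates 1 and 4 correlated best with their own number, and no TO replicate did. Against TO, PO replicate 4 alone did so. With the replicate block, members called remained 1 in PO, 1 in TO and 0 between PO and TO, all loci called were 50 in PO and 73 in TO, and *ABCG35* in PO turned to -0.038. With 1 library left out, the logFC in PO was -0.14 to 0.21 for *ABCG29*, -0.25 to 0.29 for *ABCG31*, -0.11 to 0.061 for *ABCG32*, -0.23 to 0.26 for *ABCG35* and -0.14 to 0.085 for *ABCG36*. For PO against TO it was -0.25 to 0.058 for *ABCG30*, -0.29 to 0.042 for *ABCG37* and -0.32 to 0.35 for *ABCG40*. Loci called over the table depended more on the setting: 39 in PO with edgeR against 318 with DESeq2, 60 without a filter and 23 to 144 with 1 library left out (144 without PO replicate 1), and 66 in TO against 298 with DESeq2, 44 with the libraries of 2 groups only and 26 to 73 with 1 library left out. Between PO and TO, edgeR called 0 loci and DESeq2 4. *ABCG30*, *ABCG33* and *ABCG35* rested on 46 to 235 counts per library.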
